A study of Homo sapiens with 4 samples.

Results

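Transcript levels of 8 genes of the caspase and inhibitor of apoptosis (IAP) families were examined in K562-U2AF1 S34F cells given DMSO or SF1-8. The genes were taken by name: the IAP genes BIRC2, BIRC5, BIRC6 and XIAP, the caspase genes CASP2, CASP8 and CASP9, and DIABLO, whose product antagonizes IAP proteins. Each was matched by symbol to an entry of the deposited gene table, and all 8 were found among 62778 entries that name a gene. K562 is an established human erythroleukemia cell line, and the cells of both groups overexpress U2AF1 S34F, a mutant of the small subunit of the splicing factor that recognizes the 3′ splice site. The control group was 2 libraries of cells given the solvent DMSO, and the treated group 2 libraries of cells given SF1-8, a small-molecule inhibitor of the U2AF1 UHM domain, at 30 µM for 48 h. No library of K562 cells without the mutant, or with overexpressed normal U2AF1, was analysed here. The labels do not say whether the libraries of a group came from separate cultures, so p-values measure only the spread between these libraries, which may be technical.

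Caspases are cysteine proteases that cut after aspartate residues and carry out apoptosis. Initiator caspases are activated on large adaptor complexes: caspase-8 at death receptors, caspase-9 on the apoptosome that forms when cytochrome c leaves the mitochondria, and caspase-2 on the PIDDosome. Initiators then cut the executioner caspases. IAP proteins share the zinc-binding BIR domain. XIAP blocks active caspases directly, cIAP1 (from BIRC2) is a ubiquitin ligase of tumor necrosis factor receptor signaling, BRUCE (from BIRC6) is a very large ubiquitin-conjugating enzyme, and survivin (from BIRC5) also works in mitosis as a subunit of the chromosomal passenger complex. Smac (from DIABLO) is released from mitochondria and binds the BIR domains through its processed amino terminus. All of these proteins are regulated after translation, by cleavage, release and binding, which transcript levels do not measure.

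The codons behind that biochemistry were read from GENCODE 29 coding transcripts on GRCh38 and are shown because the measured gene totals pool transcripts that carry them with transcripts that do not. In the first 3 sequences capitals mark the codons of the active-site pentapeptide, glutamine-alanine-cysteine-any residue-glycine, in which the cysteine is catalytic. In the last 2 capitals mark the 4 codons that become the amino terminus after processing and dock into a BIR domain. Lower case marks 12 bases on each side in the spliced coding sequence, all 5′ to 3′.
CASP2 active site: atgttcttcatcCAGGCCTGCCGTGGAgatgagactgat
CASP8 active site: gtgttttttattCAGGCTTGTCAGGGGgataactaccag
CASP9 active site: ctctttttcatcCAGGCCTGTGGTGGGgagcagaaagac
CASP9 IAP-binding motif: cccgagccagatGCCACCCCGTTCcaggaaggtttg
DIABLO IAP-binding motif: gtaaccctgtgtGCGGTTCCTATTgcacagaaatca
The CASP2 stretch lies at chr7:143300267-143303794 on the plus strand and is split by an intron, and the CASP8 stretch at chr2:201285073-201285111 on the plus strand lies in 1 exon. The CASP9 active site, at chr1:15495442-15504638 on the minus strand, is split by an intron, whereas the CASP9 IAP-binding codons lie in 1 exon at chr1:15495352-15495387. The DIABLO stretch, at chr12:122218392-122224541 on the minus strand, spans an intron. The active-site codons were found in 1 of 3 annotated coding transcripts of CASP2, 7 of 15 of CASP8 and 5 of 8 of CASP9, and the IAP-binding codons in 5 of 8 of CASP9 and 5 of 9 of DIABLO. Counted over the longest coding sequence of each of 19624 genes, in frame on the coding strand, the active-site motif was present in 0.347%, the CASP9 type of IAP-binding motif in 0.372% and the DIABLO type in 0.448%. The cysteine and histidine spacing of the BIR domain, present in 0.403% of genes, was found 3 times in BIRC2 (618 codons), 3 times in XIAP (497 codons) and 1 time in BIRC6 (4857 codons). In BIRC5 it was found in 1 of 6 coding transcripts, that of 142 codons, and not in the longest, of 165 codons. These matches describe the annotation. The table gives 1 value per gene and library, so the share of each transcript was not measured here.

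Counts per library summed to between 45522905 (DMSO 1) and 67554610 (SF1-8 1), and between 11.39% and 14.65% of them lay on ribosomal RNA loci. The deposited counts are estimates, with 4 the commonest value above 0, so no counting error was computed. Levels are given as FPKM, fragments per kilobase of transcript scaled to the depth of the library, which allow for length. Each entry pools several transcripts, and some entries pool several genes, so levels can be compared between genes only roughly. Log2 fold changes (SF1-8 minus DMSO) and their SE come from the counts, fitted by edgeR's quasi-likelihood method over 26167 genes. The erythroid identity of the line was visible in every library: GATA1, the erythroid transcription factor, lay between 75.9 and 79.1 FPKM, and the neutrophil granule genes MPO and ELANE were listed at 0. The 7 stromal markers (such as COL1A1 and ACTA2) summed to 12.1 and 5.67 FPKM with DMSO and to 2.80 and 0.588 FPKM with SF1-8, and 7 of 7 were lower with SF1-8, 5 of them at an unadjusted p under 0.05. The part of these transcripts in the results on caspases and IAP genes was not tested.

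None of the 8 genes changed at an adjusted p under 0.05 (edgeR quasi-likelihood, Benjamini-Hochberg over all 26167 genes), against 11 genes, or 0.042%, of all genes tested. At an unadjusted p under 0.05 the count was 0 of 8, against 4.33% of all genes, and DESeq2 also called 0 of 8, against 0.623%. By sign alone, 7 of the 8 were higher with SF1-8 and 1 was lower, beside 12657 higher and 13510 lower of all genes tested. Only BIRC5 and DIABLO kept their sign in all 14 alternative fits. The median log2 fold change of the 8 was 0.11, beside -0.011 over all genes tested, and the largest was 0.24. All 8 passed the filter on low counts. In these bulk libraries, fewer cells expressing a gene and less RNA per cell cannot be told apart.

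**Figure D1:**
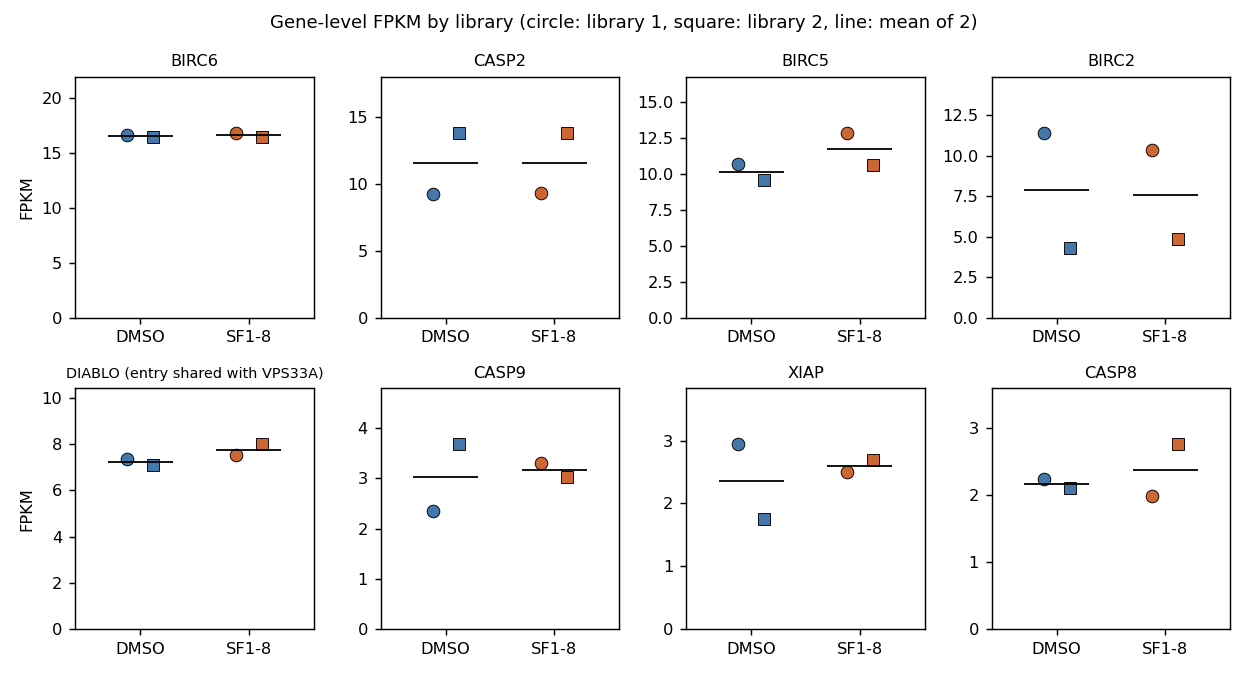
FPKM (y axis, from 0, scaled to each gene) of the 8 genes in the 2 DMSO and 2 SF1-8 libraries, with a circle for library 1, a square for library 2 and a line at the mean of each group. DIABLO is the 1 gene whose libraries do not overlap between groups, and BIRC2 and CASP2 are spread within each group.

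In order of level, BIRC6 was the highest, at a mean of 16.6 FPKM over the 4 libraries, and its lowest library lay above every library of CASP2, the next at 11.6 FPKM. CASP2, BIRC5 (10.9 FPKM), BIRC2 (7.73 FPKM) and DIABLO (7.50 FPKM) followed, and each of these ranges over libraries overlapped the next. DIABLO did not overlap CASP9 (3.10 FPKM), which headed the low group with XIAP (2.48 FPKM) and CASP8 (2.28 FPKM), again with overlapping neighbours. CASP2 was the highest of the 3 initiator caspases in every library. This order is that of whole entries. The entries of BIRC6 and DIABLO also name other genes, so the order does not rank BIRC6 or DIABLO as single genes.

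Among the initiator caspases, CASP8 (chr2:201233443-201288203, plus strand), the death receptor caspase, stood at 2.24 and 2.11 FPKM with DMSO and at 1.98 and 2.77 FPKM with SF1-8. SF1-8 2 was the highest library and SF1-8 1 the lowest, so the groups overlapped. The log2 fold change was 0.15 ± 0.18 (SE), with an adjusted p of 0.970 by edgeR. Its 95% interval, not adjusted for the number of genes tested, ran from 0.808- to 1.53-fold and included no change. The intervals of the other genes are of the same kind. A further strandless entry of that name, chr2:201236204-201236511, held 49, 30, 22 and 22 counts and was not used.

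CASP9 (chr1:15490832-15524889, minus strand), the caspase of the apoptosome, stood at 2.36 and 3.69 FPKM with DMSO and at 3.30 and 3.03 FPKM with SF1-8. Both SF1-8 libraries fell between the DMSO libraries. Its log2 fold change was 0.08 ± 0.25 (SE; edgeR adjusted p = 0.986), with an interval from 0.680- to 1.65-fold. CELA2B, on the opposite strand, overlaps 569 bases of this entry, and whether counting used strand is not given in the sources used here.

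CASP2 (chr7:143288215-143307695, plus strand), the caspase of the PIDDosome, stood at 9.26 and 13.8 FPKM with DMSO and at 9.33 and 13.8 FPKM with SF1-8. The group means, 11.5 ± 3.23 and 11.6 ± 3.16 FPKM (SD), were nearly equal, while library 1 was lower than library 2 in both groups, at 0.670 and 0.676 times its FPKM. Its log2 fold change was 0.02 ± 0.28 (SE; edgeR adjusted p = 0.997). Its within-group SD, 0.43 on the log2 scale, was larger than that of 95.8% of genes of similar expression.

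XIAP (chrX:123859724-123913965, plus strand), the direct caspase inhibitor, stood at 2.95 and 1.76 FPKM with DMSO and at 2.50 and 2.69 FPKM with SF1-8. As with CASP9, both SF1-8 values lay within the span of the DMSO libraries. The log2 fold change was 0.18 ± 0.23 (SE; edgeR adjusted p = 0.970), with an interval from 0.752- to 1.70-fold. XIAP-AS1, annotated on the opposite strand, overlaps 1307 bases of the entry.

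BIRC2 (chr11:102347211-102378670, plus strand), which encodes cIAP1, had the largest spread within groups of the 8 genes. It stood at 11.4 and 4.31 FPKM with DMSO and at 10.3 and 4.84 FPKM with SF1-8. Library 1 was the high library in both groups, 2.65-fold above library 2 with DMSO and 2.14-fold with SF1-8, so each group held 1 high and 1 low library. The within-group SD of 0.86 on the log2 scale exceeded that of 98.9% of genes of similar expression. Between groups it differed by -0.0053 ± 0.54 on the log2 scale (SE; edgeR adjusted p = 0.999). The interval, 0.387- to 2.57-fold, was the widest of the 8. These libraries are compatible with a change of BIRC2 anywhere in it, and it is not a limit of detection.

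**Figure D2:**
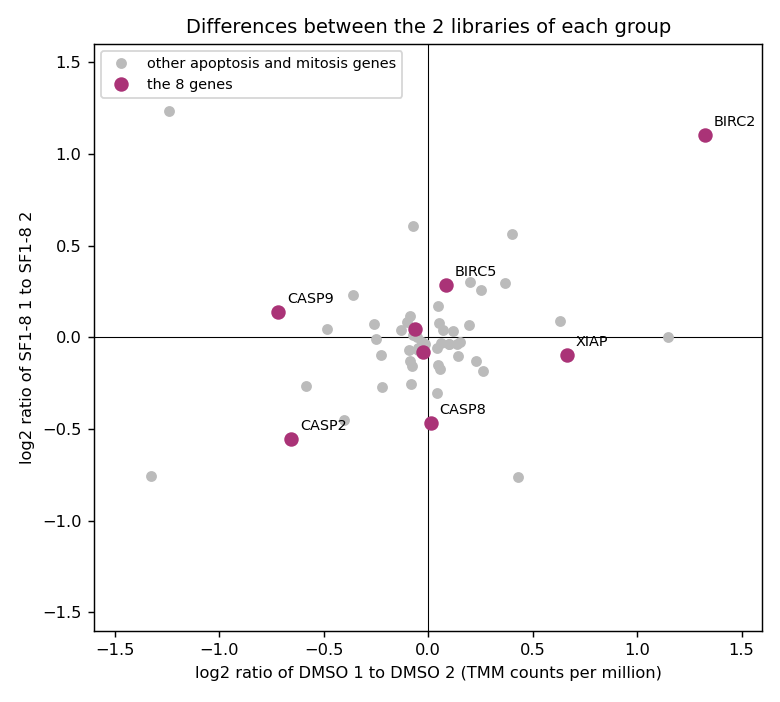
Log2 ratio of library 1 to library 2 with DMSO (x axis) against the same ratio with SF1-8 (y axis), from normalized counts, for the 8 genes and 50 pathway genes; BIRC3 and SEPTIN4 lie outside the axes. BIRC2 lies far in the upper right, at 1.33 and 1.10, and CASP2 in the lower left, at -0.66 and -0.55, whereas BIRC6 and DIABLO lie near the centre.

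BIRC6 (chr2:32357028-32618899, plus strand), which encodes BRUCE, was the steadiest. It stood at 16.6 and 16.5 FPKM with DMSO and at 16.9 and 16.5 FPKM with SF1-8. The 4 libraries hardly differed and the groups overlapped. The log2 fold change was 0.04 ± 0.06 (SE; edgeR adjusted p = 0.971), and its interval, from -0.12 to 0.20 on the log2 scale, was the narrowest of the 8. The entry also names sense intronic genes of AL133243, and the antisense BIRC6-AS1 and BIRC6-AS2 overlap it.

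BIRC5 (chr17:78214186-78225636, plus strand), which encodes survivin, stood at 10.7 and 9.55 FPKM with DMSO and at 12.9 and 10.6 FPKM with SF1-8. SF1-8 1 was the highest library and DMSO 2 the lowest, and SF1-8 2 lay just under DMSO 1, so the groups overlapped. The means were 10.1 ± 0.80 FPKM with DMSO and 11.7 ± 1.59 FPKM with SF1-8 (SD, 2 libraries each). The difference of 0.24 ± 0.12 on the log2 scale (SE) had the smallest unadjusted p of the 8 genes, 0.106 by edgeR, and an adjusted p of 0.970. On the log2 scale its interval ran from -0.073 to 0.56. The values of BIRC5 are gene totals, and the share of each transcript was not measured here. From transcript levels, the paper that reported these data found a marked increase of Survivin-2a with SF1-8. It ascribes an apoptotic function to that transcript.

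DIABLO (chr12:122207662-122266494, minus strand), which encodes Smac, stood at 7.36 and 7.09 FPKM with DMSO and at 7.53 and 8.02 FPKM with SF1-8. The lower SF1-8 library exceeded the higher DMSO library. Such separation, in either direction, was seen in 1 of the 8 genes and in 34.2% of all genes tested. DIABLO had a log2 fold change of 0.13 ± 0.07 (SE; edgeR adjusted p = 0.970), with an unadjusted p of 0.122 by edgeR and an interval from 0.966- to 1.25-fold. An exact permutation of 2 against 2 libraries cannot give a two-sided p under 0.333. The entry also names VPS33A, a vesicle tethering gene upstream of DIABLO on the same strand, and AC048338, which spans both genes. The value is therefore that of the joint entry, and the share of DIABLO in it is not known.

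**Figure D3:**
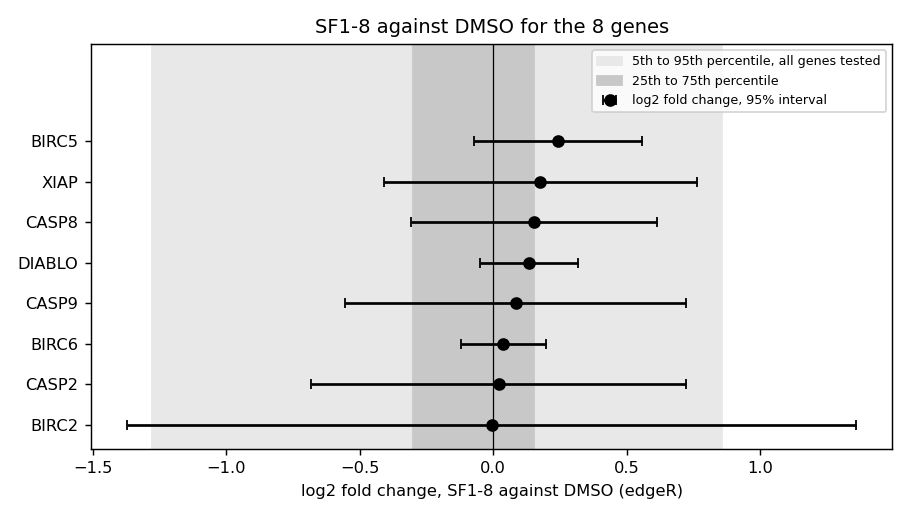
Log2 fold change (x axis, SF1-8 minus DMSO) of each of the 8 genes from edgeR's quasi-likelihood fit, with 95% intervals as bars, a line at 0, and grey bands for the 5th to 95th and 25th to 75th percentiles of all genes tested. Every interval includes 0; that of BIRC2 is the widest and that of BIRC6 the narrowest.

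Within groups the 8 genes differed widely in spread. The within-group SD exceeded the 90th percentile of genes of similar expression for 3 of them (BIRC2, CASP2 and CASP9), against 4 of 52 genes of the surrounding pathway, and fell under the 30th percentile for 2 (BIRC6 and DIABLO). BIRC2 and CASP2 split the libraries by their number in both groups but in opposite directions. For XIAP and CASP9 the FPKM ratios of library 1 to library 2 were 1.68 and 0.640 with DMSO, and 0.927 and 1.09 with SF1-8.

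The genes around these 8 were taken from 8 lists of 60 genes, of which 52 passed the filter. None changed at the adjusted threshold by edgeR or DESeq2, 31 were higher and 21 lower by sign, and their median log2 fold change was 0.03. At an unadjusted p under 0.05, 1 was higher (LMNB1) and 1 lower (CASP4), or 2 of the 52 against 4.33% of all genes tested. CASP4 passed the filter only through its DMSO libraries. Library values of the groups did not overlap for 14 of the 52, against 34.2% of all genes tested.

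Among the other caspase genes, CASP10, the paralog of CASP8 at death receptors, varied within both groups, at 1.11 and 2.48 FPKM with DMSO and at 2.34 and 0.989 FPKM with SF1-8. The inflammatory caspase CASP4 was close to silent: 22 and 12 counts with DMSO and 0 and 0 with SF1-8. It passed the filter on low counts only through its DMSO libraries, the group where it is higher. Its edgeR p of 0.0131 (adjusted p = 0.970) is therefore not support for a decrease. With 3 counts put in place of each 0, CASP4 would be 7.03-fold lower. That floor is arbitrary because the counts are estimates, so the figure is not a bound. Of the 9 other caspase genes 5 were tested, 3 higher and 2 lower, and CASP1, CASP5, CASP12 and CASP14 were listed at 0 in every library.

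Among the other IAP genes and antagonists, 5 of 7 were tested, 1 higher and 4 lower, none called. BIRC3, the cIAP2 gene next to BIRC2 on chromosome 11, was barely expressed, between 0.0124 and 0.0635 FPKM. NAIP, an IAP that senses bacterial proteins and has near-identical copies in its locus among which reads may be divided, reached 1.46 FPKM at most. HTRA2, a mitochondrial protease that also antagonizes IAP proteins, stood at 10.2 and 10.2 FPKM with DMSO and at 9.11 and 10.2 FPKM with SF1-8. The melanoma IAP gene BIRC7 had the smallest unadjusted p of the list, 0.356 by edgeR (adjusted p = 0.970), at 0.246 to 0.460 FPKM. XAF1, whose product binds XIAP, was listed at 0, as was BIRC8.

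**Figure D4:**
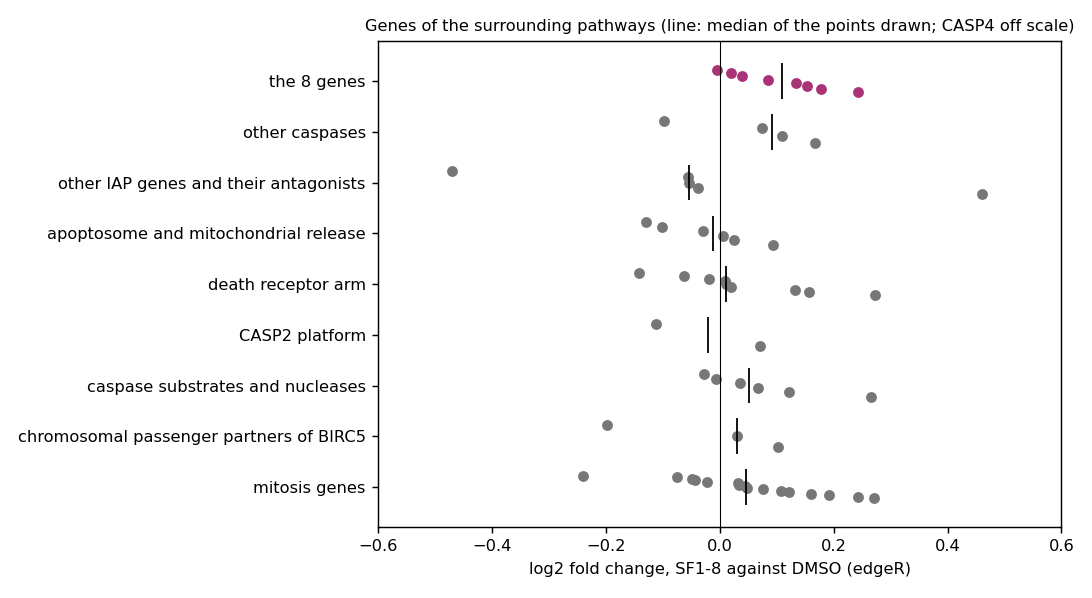
Log2 fold change (SF1-8 minus DMSO) of the tested genes by list, 1 point per gene with a line at the median of the points drawn; CASP4, whose SF1-8 libraries were both at 0, is off the scale and not drawn. The lists centre near 0, with list medians from -0.05 to 0.11.

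Upstream of CASP9, all 6 genes of the apoptosome and mitochondrial release list were tested, 3 higher and 3 lower, their median log2 fold change being -0.013. The scaffold gene APAF1 lay between 2.04 and 2.47 FPKM and cytochrome c (CYCS) between 59.6 and 68.8 FPKM. The pore-forming gene BAX stood at 11.2 and 10.1 FPKM with DMSO and at 9.67 and 9.47 FPKM with SF1-8. The groups did not overlap, and the log2 fold change was -0.13 ± 0.10 (SE; edgeR adjusted p = 0.970).

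In the death receptor arm upstream of CASP8, 9 of 11 genes were tested, 6 higher and 3 lower. The adaptor FADD lay between 12.2 and 14.8 FPKM, and CFLAR, whose product c-FLIP competes with caspase-8 for FADD, between 0.996 and 1.44 FPKM. The CFLAR entry also names RNU7-45P and AC007283, so its FPKM do not rank CFLAR itself against FADD. It held more counts than the entry of FADD in every library, but counts do not allow for length. The kinase RIPK1 stood at 9.94 and 9.59 FPKM with DMSO and at 10.5 and 10.8 FPKM with SF1-8, groups that did not overlap, with an unadjusted p of 0.102 by edgeR (adjusted p = 0.970). The adaptor TRADD had an edgeR p of 0.301 (adjusted p = 0.970) and was high in SF1-8 1 alone, at 4.68 FPKM against 3.09 to 3.27 FPKM in the other libraries. On the CASP2 platform, PIDD1 had a log2 fold change of -0.11 ± 0.10 and CRADD, the adaptor RAIDD, one of 0.07 ± 0.13 (SE; edgeR adjusted p = 0.970 and 0.973).

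Of the caspase substrates and nucleases, 6 of 6 were tested, 4 higher and 2 lower. LMNB1, the lamin B1 gene, stood at 44.4 and 35.9 FPKM with DMSO and at 44.9 and 49.5 FPKM with SF1-8. The groups did not overlap, though SF1-8 1 lay just above DMSO 1. The log2 fold change was 0.27 ± 0.10 (SE; edgeR adjusted p = 0.970), with an unadjusted p of 0.0497 by edgeR. ROCK1, a kinase that drives blebbing once cut, had a log2 fold change of 0.12 ± 0.08 (SE; edgeR adjusted p = 0.970).

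Survivin works in mitosis with AURKB, INCENP and CDCA8, and 2 of these 3 were higher and 1 lower by sign, none called. AURKB, the kinase, stood at 9.62 and 7.62 FPKM with DMSO and at 9.82 and 8.28 FPKM with SF1-8, and CDCA8 (borealin) lay between 33.2 and 36.3 FPKM. INCENP, the scaffold, stood at 6.39 and 7.07 FPKM with DMSO and at 5.55 and 5.99 FPKM with SF1-8, groups that did not overlap, with a log2 fold change of -0.20 ± 0.11 (SE; edgeR adjusted p = 0.970). Of 16 further mitosis genes 11 were higher and 5 lower, none called, and the median of their log2 fold changes was 0.05, beside 0.24 for BIRC5. The smallest unadjusted p values there were those of the kinase PLK1 (0.135) and the kinetochore gene CENPF (0.152), both by edgeR with an adjusted p of 0.970.

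Likeness of pattern was measured among the 52 pathway genes as the root mean square distance between normalized log2 counts, each centred on its mean over the 4 libraries. The nearest to BIRC5 was the mitotic kinesin KIF20A, at 0.0581, against a median of 0.179 over the candidates. DIABLO was nearest to KIF11, at 0.0132, and BIRC6 to PARP1, at 0.0208, against medians of 0.108 and 0.0959. CASP8 was nearest to CASP6, at 0.0603, CASP2 to CFLAR, at 0.123, CASP9 to MKI67, at 0.112, and XIAP to LMNB1, at 0.157. BIRC2 had no close match: its nearest, AURKA, was 0.381 away, and AURKA too was higher in library 1 of each group. These distances rest on 4 libraries and describe them only.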

How the data were processed

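Total RNA of 1 cell line, in 4 libraries, was depleted of ribosomal RNA and sequenced from TruSeq libraries. The labels name cutadapt, FastQC, Bowtie2, HISAT2, StringTie and hg38, and versions are not given in the sources used here. The deposited FPKM values were normalized by the authors for gene length and depth, with 0.0001 in place of 0. The deposited counts are estimated counts per entry of a merged assembly, not normalized. Of 64873 entries 2088 name more than 1 gene, and the 2095 that name none, with 0.358% to 0.421% of counts, were left out.

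Counts were normalized by TMM, filtered by filterByExpr and tested with edgeR 4.0.16 (R 4.3.3) with p-values adjusted over 26167 genes; SE is the log2 fold change divided by the square root of F. The steps were tested on simulated data. DESeq2 1.42.0, limma 3.58.1 on log2(FPKM + 1) or log2(FPKM + 0.1), no filter, other scalings, counts divided by 4, a replicate block and leaving out each library were alternatives. Spread was ranked among genes in the same of 10 equal bins of expression. The 8 genes and the lists were chosen with earlier results of these data known. In the lists, the genes named were the 2 with the smallest p in each, 13 given always by level, and the nearest to each of the 8; genes that these rules name and the text does not are not reported here. No motif was searched outside coding sequences, and protein sequences were not used here.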

Additional observations from a re-analysis of the deposited data

How the results depend on the processing

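None of the 8 genes and none of the 52 pathway genes passed the adjusted threshold in the test reported or in any of the 14 alternatives. The count over all genes, 11, was 163 with DESeq2, 31 without the filter, and 0 with limma at either pseudocount, without its filter or with quantile scaling (1493, 1499, 1754 and 1498 genes at an unadjusted p under 0.05). It ranged from 0 to 30 when 1 library was left out, 0 without DMSO 1, 21 without DMSO 2, 30 without SF1-8 1 and 28 without SF1-8 2. The replicate numbers are not stated to pair the libraries. Over 26167 genes, the deviations of same-numbered libraries from their group means had a correlation of 0.0165. With 2 libraries per group this is 1 value pooled over all genes, and it cannot decide whether the libraries are paired. With the replicate block 0 genes were called (971 at an unadjusted p under 0.05 by edgeR). BIRC2 then stood at 0.04 ± 0.12 (SE) and CASP2 at 0.03 ± 0.09 (SE) on the log2 scale.

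BIRC5 and DIABLO kept their sign in all 14 alternatives, but BIRC5 moved from 0.24 to 0.096 without SF1-8 1 and to 0.39 without SF1-8 2 (unadjusted p of 0.0299, adjusted p = 0.9997 by edgeR), and DIABLO ranged from 0.099 to 0.18 when 1 library was left out. BIRC2 turned from -0.0053 to 0.0052 without the filter, 0.037 with the block, 0.0020, 0.0098 and 0.0020 in limma at a pseudocount of 1, of 0.1 and without its filter, and 0.0042 with quantile scaling, which also turned BIRC6 to -0.0060 and CASP2 to -0.0040. Leaving out 1 library moved BIRC2 from -0.66 to 0.80 (0.80 without DMSO 1, 0.45 without SF1-8 2) and CASP2 from -0.28 to 0.39 (-0.27 without DMSO 1, -0.28 without SF1-8 2). XIAP ranged from -0.11 (without DMSO 2) to 0.55 (without DMSO 1, unadjusted p of 0.0148 by edgeR), CASP8 from -0.095 (without SF1-8 2) to 0.37, CASP9 from -0.23 (without DMSO 1) to 0.49 (without DMSO 2, unadjusted p of 0.0328 by edgeR), and BIRC6 from 0.0054 to 0.076. The cause was not tested. The library left alone in its group is then assumed to vary like the other group.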

Other observations

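The table annotates 136 entries to the KEGG apoptosis pathway, 7 of the 8 genes among them and BIRC6 not. Of the 125 tested, 73 were higher and 52 lower with SF1-8, 0 were called by edgeR at an adjusted p under 0.05, and 9 (7.20%) had an unadjusted p under 0.05, against 4.33% of all genes. The following were named after their values were seen, from those with the smallest p values of that pathway. BCL2, the gene of an anti-apoptotic protein of the mitochondrial membrane, stood at 0.271 and 0.238 FPKM with DMSO and at 0.570 and 0.579 FPKM with SF1-8. Its log2 fold change was 1.20 ± 0.17 (SE), with an adjusted p of 0.397 by edgeR and 0.000134 by DESeq2. These values are RNA totals of the gene. The paper that reported these data found less BCL-2 protein on western blots, and more of the BCL-2b transcript, to which it ascribes an apoptotic function. PIK3R1, the regulatory subunit of phosphoinositide 3-kinase, stood at 1.89 and 1.58 FPKM with DMSO and at 1.00 and 1.08 FPKM with SF1-8, a log2 fold change of -0.70 ± 0.13 (SE; adjusted p = 0.657 by edgeR and 0.0130 by DESeq2). Both SF1-8 libraries of BCL2 lay above both DMSO libraries, and both of PIK3R1 below. As these genes were chosen by their p values, this separation is not further support. Separation in either direction was seen in 34.2% of all genes tested.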
